A study of Mus musculus with 4 samples.

Results

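Endogenous conventional CD4 T cells of the tumour were taken from the 2 endogenous CD45+ libraries of this series by their transcripts. A barcode was kept with at least 1000 unique molecular identifiers (UMIs, each standing for 1 captured RNA molecule), 500 or more genes and no more than 10% mitochondrial UMIs. It was called a conventional CD4 T cell with at least 1 UMI of Cd4, at least 2 UMIs of the CD3 chain genes Cd3d, Cd3e and Cd3g together, and no UMI of Foxp3, Cd8a, Cd8b1 or Cd79a. Lyz2, a myeloid gene, had to stay under 10 per 10000 UMIs of the barcode. The rule found 567 cells, 319 in one library and 248 in the other, among 12047 kept endogenous cells and 15132 kept cells in the whole series.

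The host mice were C57BL/6 with B16-F10 melanoma, a transplantable line of that strain. On day 3 after implantation they received Pmel-1 cells, CD8 T cells whose transgenic receptor reads gp100, an antigen of melanoma cells, transduced with IRF4-GFP in the IRF4 arm or with a GFP control in the control arm. On day 14 the Pmel-1 cells and the endogenous CD45+ infiltrate were sorted from the tumours and sequenced by droplet 3′ RNA profiling, giving 4 libraries, 1 for each arm and cell source. The CD4 cells described here were therefore sorted as host cells in both arms, and the arms differed in which Pmel-1 cells had been given. The series asks how IRF4 in CD8 T cells bears on anti-tumour immunity. The age and number of the mice, and whether several tumours were pooled, are not given in the sources used here. With 1 library per arm, the arm and the library cannot be told apart. No difference between arms was tested, and every interval below is a 95% interval for counting error only.

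Conventional CD4 T cells are the helper cells of the adaptive immune system: they read peptides on MHC class II through a receptor that Cd4 assists. Naive cells carry Ccr7, a chemokine receptor that brings them into lymph nodes, and Lef1 and Tcf7, transcription factors of the resting state. After antigen contact they lose these and can become Th1 cells, which make interferon-gamma under the transcription factor T-bet. Regulatory T cells, marked by Foxp3, are a separate CD4 lineage and were kept apart by the rule.

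The 319 cells of the IRF4 arm held 1709437 UMIs and the 248 cells of the control arm 1663036, with medians of 4662 and 4998.5 UMIs, 1803 and 1764 genes and 4.01% and 4.71% mitochondrial UMIs per cell. The whole libraries held 81843816 and 84211837 UMIs. Between the 2 endogenous libraries 18 barcodes were shared, and no barcode of a conventional CD4 cell was found in any other library. Levels are given as CPM (counts per 1000000): each gene's UMIs were added up across a library's gated cells and divided by all their UMIs. A gene counts as measured if one of the libraries reached 10 CPM, and as higher or lower if the arms differed 1.5-fold or more on log2(CPM + 1). Pairs of values give the IRF4 arm first.

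The transcripts that the rule did not use matched the label. Trac, the constant segment of the receptor alpha chain, stood at 1073 CPM in the IRF4 arm against 722 CPM in the control arm, and Cd28 at 373 and 252 CPM. Cd40lg, the CD40 ligand through which helper cells act on B and dendritic cells, stood at 62.0 and 37.3 CPM, against 0.419 and 0.263 CPM in endogenous CD8 T cells of the same libraries. Zbtb7b, the transcription factor that commits thymocytes to the CD4 lineage, stood at 34.5 and 34.9 CPM.

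The gate has soft edges. A single Cd4 UMI admitted 152 of the 319 cells in the IRF4 arm against 134 of the 248 in the control arm, and 2 cells and no cell stood at the lower CD3 limit of 2 UMIs. Just outside, 1 Foxp3 UMI turned away 16 and 5 cells, 1 CD8 chain UMI turned away 32 and 16 cells, and the Lyz2 limit 11 and 19 cells. A further 637 and 406 cells had CD3 transcripts with no UMI of Cd4, Foxp3 or the CD8 chains, so the gate may hold only part of the conventional CD4 cells present.

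A few barcodes held antigen-presenting transcripts beside those of T cells. Cd74, the MHC class II invariant chain, reached 10 per 10000 UMIs in 8 cells of the IRF4 arm and 22 of the control arm. Those cells were deep, with medians of 12370 and 21430 UMIs, and held 5.28% and 28.9% of all UMIs of the gate. They make up more of the control sum than of the IRF4 sum, so each list count below is also given without them. The T cell marker list had a median log2 ratio of 0.50 with them and 0.20 without them. Trac had ratios of 1.49 with and 1.24 without them, and Cd40lg of 1.66 and 1.24. Single-gene ratios between the arms are over all cells of the gate unless stated. Of 8 measured dendritic markers 1 was higher and 7 lower in the IRF4 arm, with a summed level of 439 and 9021 CPM. Without the Cd74 cells 4 were measured, 1 higher and 3 lower. The higher one over all cells was Siglech, at 31.0 and 1.20 CPM. Its ratio was 25.8 over all cells and 8.03 without the Cd74 cells. What part barcodes with dendritic transcripts had in the levels of either arm was not tested. Of 11 myeloid markers 1 was higher and 10 lower, with 912 and 2757 CPM, and all 3 measured neutrophil markers were lower. Without the Cd74 cells 8 myeloid markers were measured, 2 higher and 2 lower, and 0 neutrophil markers were measured. The 2 CD8 chain genes were at 0 by the rule, and no melanoma marker was measured. The doublet caller Scrublet marked 1 kept cell in each endogenous library and is treated as not having worked.

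Conventional CD4 cells made up a share of the infiltrate that did not differ between the arms beyond counting error under the rule as stated, and a smaller share of its T cells in the IRF4 arm. They were 319 of 6371 kept cells in the IRF4 arm, 5.01% (4.48 to 5.57), and 248 of 5676 in the control arm, 4.37% (3.85 to 4.93), a ratio of shares of 1.15 (0.968 to 1.36). Some stricter settings put the ratio above 1 beyond counting error. It was 1.23 (1.03 to 1.46) without the Cd74-rich cells described above, 1.35 (1.09 to 1.68) at no more than 5% mitochondrial UMIs and 1.497 (1.19 to 1.89) with Lyz2 at 0. Other stricter settings did not. The ratio was 1.14 (0.961 to 1.35) with at least 3 CD3 UMIs and 1.14 (0.966 to 1.36) for barcodes with at least 2000 UMIs. Without the highest Scrublet scores it was 1.14 (0.961 to 1.36). Among T cells of the CD4, regulatory and CD8 gates they were 12.6% (11.4 to 14.01) in the IRF4 arm against 23.0% (20.5 to 25.6) in the control arm, a ratio of 0.550 (0.464 to 0.652). That difference lay with CD8 T cells, which numbered 2107 and 764, or 6.605 and 3.08 per conventional CD4 cell. Regulatory T cells numbered 96 and 66, or 1 per 3.32 and 3.76 conventional CD4 cells. Sorting on CD45 and the yield of each library can set such shares.

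The make-up of the gate differed in its cells with Ccr7. Cells with a UMI of Ccr7 numbered 67 of 319 in the IRF4 arm against 98 of 248 in the control arm, which is 1.05% and 1.73% of kept cells, a ratio of 0.609 (0.440 to 0.839). Cells without one numbered 252 and 150, or 3.96% and 2.64% of kept cells, a ratio of 1.497 (1.22 to 1.84). As shares of the infiltrate, cells with Ccr7 were thus lower and cells without it higher in the IRF4 arm. Ccr7 was not confined to naive cells, so these shares do not count naive cells alone. In the clusters described below, 40 Ccr7 UMIs of the IRF4 arm lay in the naive-like cluster 3, against 121 of the control arm. Cluster 2 held 61 and 23, cluster 4, rich in Cd74, held 59 and 43, and the Th1-like cluster 1 held 28 and 4.

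The naive and recirculating gene list followed the same direction. Of its 17 members, all measured, 10 were lower in the IRF4 arm and 0 higher, at a list median log2 ratio of -0.71, while 9.25% of the 7950 measured genes were lower and 10.4% higher and the median over all of them was 0.08. Without the Cd74 cells 13 were lower and 0 higher, at a list median of -0.94, beside 5.73% lower and 12.8% higher of 7714 measured genes. Lef1 (chromosome 3, 131110471 to 131224356, mm10) stood at 142 CPM (125 to 161) in the IRF4 arm against 334 CPM (307 to 363) in the control arm, in 129 and 163 cells, a ratio of 0.425 (0.364 to 0.495). Igfbp4, a secreted binding protein of insulin-like growth factors that marks naive CD4 cells in mice, stood at 35.1 and 108 CPM, a ratio of 0.324 (0.238 to 0.437). Satb1, a chromatin organiser of the T lineage, stood at 170.2 and 379 CPM, a ratio of 0.449.

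Other genes of the list had ratios closer to 1 over all cells. Tcf7 stood at 300.1 and 311 CPM, a ratio of 0.965 (0.853 to 1.09), and Il7r, the receptor for the survival cytokine IL-7, at 608 and 586 CPM, a ratio of 1.04 (0.95 to 1.13). S1pr1, the receptor that lets T cells leave tissue, stood at 106 and 132 CPM, a ratio of 0.804, and Klf2, a transcription factor that maintains it, at 833 and 684 CPM. Ccr7 had a ratio of 0.978 (0.797 to 1.20) over all cells, at 113 and 115.5 CPM, and a ratio of 0.648 without the Cd74 cells. Leaving those cells out, S1pr1 was called lower, at a ratio of 0.650, and the ratios of Tcf7, Il7r and Klf2 were 0.781, 0.811 and 1.004. In the IRF4 arm 7 cells held at least 50% of the Ccr7 UMIs, against 24 cells in the control arm.

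Counting cells at equal depth gave the same picture. After each cell was thinned to 2000 UMIs, leaving out 0 and 1 shallower cells, a Ccr7 UMI remained in 11.9% (8.57 to 15.98) of cells in the IRF4 arm against 22.7% (17.6 to 28.4) in the control arm, and before thinning in 21.0% and 39.5%. In myeloid cells it remained in 3 of 825 and 0 of 1270, the latter allowing a share of up to 0.236%. Igfbp4 remained in 3.45% (1.73 to 6.09) and 14.6% (10.4 to 19.6) of CD4 cells and in none of the 109 and 456 B cells, which allows shares there of up to 2.75% and 0.658%. In myeloid cells Igfbp4 remained in 0.606% and 2.68%, also more in the control arm, and was found in 5.21% and 12.6% before thinning. Lef1 remained in 23.2% and 45.7% of CD4 cells and in 0.485% and 0.157% of myeloid cells, whose median depths were 11540 and 14500 UMIs. Ccr7 and Cxcr6, a receptor of tissue-resident and effector T cells, were looked for in the same cells: Cxcr6 was found in 3 of 38 and 3 of 56 cells with Ccr7, and in 38.1% and 28.3% of cells without it.

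**Figure D1:**
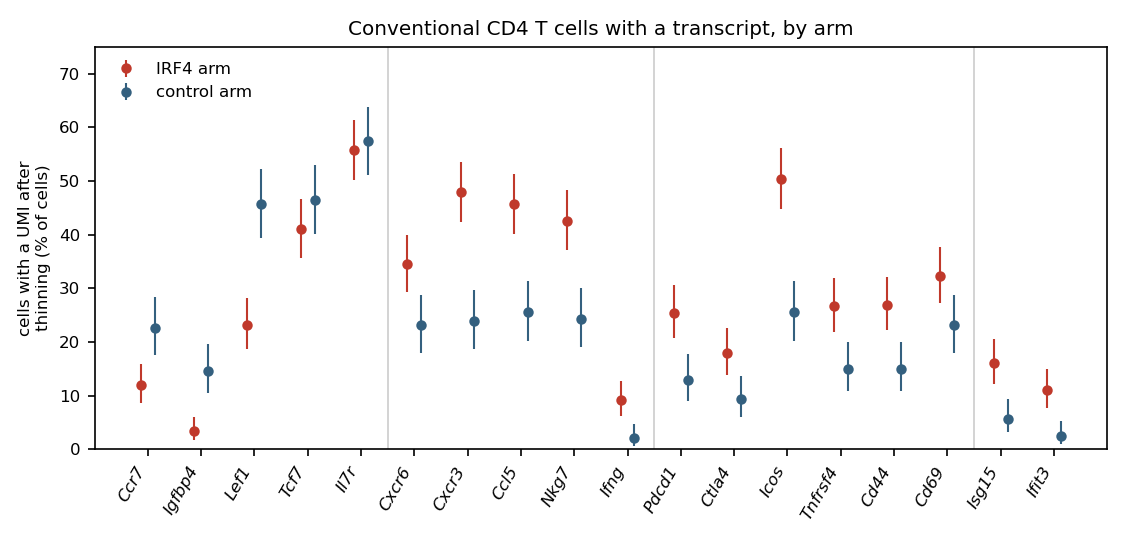
Share of conventional CD4 T cells with at least 1 UMI of each gene after thinning to 2000 UMIs, in percent of 319 cells of the IRF4 arm and 247 of the control arm, with exact 95% intervals for counting error. Naive genes on the left sit lower in the IRF4 arm, Tcf7 and Il7r overlap, and effector, activation and interferon genes sit higher.

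Red cell transcripts, and the share of B cells in the library, moved with the naive cells. Hbb-bs, a haemoglobin gene, had no UMI in CD4 cells of the IRF4 arm, which allows up to 1.75 CPM, and stood at 49.3 CPM in the control arm, in 65 of its 248 cells. In myeloid cells of the same libraries it stood at 1.15 and 860 CPM. B cells made up 1.71% and 8.03% of kept cells. Inside the CD4 gate 1 B cell marker was measured, Ighm, which stood at 161 and 186 CPM and within the limit. Of 5 red cell and platelet markers 4 were measured and all 4 were lower, with a summed level of 0.585 and 99.8 CPM. Without the Cd74 cells 3 were measured and all 3 were lower. How far blood or lymphoid tissue in the control sample has a part in the naive share was not tested.

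Genes of Th1 differentiation were higher in the IRF4 arm. All 18 members of the list were measured, and 13 were higher and 0 lower, at a list median log2 ratio of 0.90. The Cd74 cells left out, 14 were higher and 0 lower, at a list median of 0.76. Ifng, the gene of interferon-gamma (chromosome 10, 118441046 to 118445892, mm10), was read 104 times in 56 cells of the IRF4 arm and 17 times in 11 cells of the control arm. That is 60.8 CPM (49.7 to 73.7) and 10.2 CPM (5.96 to 16.4), a ratio of 5.95 (3.54 to 10.6), and 5.56 without the Cd74 cells. After thinning, 9.09% (6.17 to 12.8) and 2.02% (0.661 to 4.66) of cells held an Ifng UMI, against 0.364% and 0.157% of myeloid cells. Tbx21, which encodes T-bet, stood at 43.9 and 25.9 CPM, a ratio of 1.70 (1.15 to 2.53). Il12rb2, the inducible chain of the IL-12 receptor, stood at 41.0 and 15.6 CPM, and Stat4, which relays its signal, at 212 and 117.3 CPM.

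Trafficking and effector genes of the list lay mostly above the limit. Cxcr3, the receptor for interferon-induced chemokines, stood at 356 and 177 CPM, a ratio of 2.01 (1.75 to 2.32). After thinning it was found in 47.96% and 23.9% of CD4 cells, against 0.727% and 0.630% of myeloid cells. Ccl5, a chemokine of effector T cells, stood at 2392 and 1081 CPM, a ratio of 2.21, and Nkg7, a granule protein, at 559 and 288 CPM, a ratio of 1.94. Cxcr6 stood closer, at 301 and 224 CPM, a ratio of 1.34 (1.17 to 1.54) that did not reach the limit and was 1.13 without the Cd74 cells. Bhlhe40, Id2 and Runx3 also stayed within a ratio of 1.5.

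Cytotoxic and cytokine genes leaned the same way, some through single cells. Of 12 measured cytotoxic genes 9 were higher and 0 lower, at a list median log2 ratio of 1.06, and 8 and 0 without the Cd74 cells. Eomes, a T-box factor of cytotoxic cells, stood at 10.53 and 1.80 CPM. Gzmk, granzyme K, stood at 63.8 and 21.0 CPM, a ratio of 3.03, and Fasl, the Fas ligand, at 62.0 and 28.9 CPM. Gzma, granzyme A, had a ratio of 5.51, with at least 50% of its UMIs in 2 and 1 cells. Gzmb, granzyme B, stood at 118 and 129.9 CPM, with at least 50% of the control UMIs in 1 cell, and its ratio was 1.60 when the cell with the most UMIs was left out of each library. Of 14 measured cytokine genes 9 were higher and 2 lower, and 6 and 2 without the Cd74 cells. Il2, the growth factor of T cells, stood at 33.9 and 20.4 CPM, a ratio of 1.66 (1.07 to 2.61). Without the Cd74 cells the Il2 ratio was 1.49, below the limit. Ccl4 had a ratio of 29.9, yet 1 cell of the IRF4 arm held at least 50% of its UMIs, and without the top cell of each library the ratio was 2.97. Lta, lymphotoxin alpha, and Xcl1 were lower, at 6.43 and 15.03 CPM and at 9.95 and 19.8 CPM.

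Most NK cell markers were also higher, while their sum was not. Of 8 measured NK markers 6 were higher and 1 lower, and 7 and 0 of 9 without the Cd74 cells, and their summed level was 611 CPM in the IRF4 arm against 646 CPM in the control arm. The lower one, Tyrobp, which is also in the myeloid list, made up most of the control sum, at 153 and 403 CPM. Its ratio was 0.380 over all cells and 1.48 without the Cd74 cells. Both measured innate-like and gamma-delta T cell markers were higher, with and without the Cd74 cells. The summed level of that list was 59.7 and 26.5 CPM over all cells. Cells with a UMI of Zbtb16, Trdc, Tcrg-C1, Klrb1c or the NK marker Ncr1 numbered 18 of 319 and 13 of 248. Activated T cells use several of these genes, and what part of them came from NK or innate-like cells was not tested.

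Costimulatory receptor genes were higher as a group. All 12 were measured, and 10 were higher and 0 lower, at a list median log2 ratio of 0.81. Leaving out the Cd74 cells, 6 were higher and 0 lower, at a list median of 0.55. Icos, the inducible costimulator of activated CD4 cells, stood at 431 and 179 CPM, a ratio of 2.41 (2.10 to 2.76), and was found after thinning in 50.5% (44.8 to 56.1) and 25.5% (20.2 to 31.4) of cells. In myeloid cells its share was 0.242% and 0.0787%. Tnfrsf4, the gene of OX40, stood at 312 and 142 CPM, a ratio of 2.20 (1.88 to 2.57), and Tnfrsf9, the gene of 4-1BB, at 116 and 60.1 CPM. Without the Cd74 cells Icos had a ratio of 2.10 and Tnfrsf4 of 1.93. Slamf1, a homotypic signalling receptor, had a ratio of 2.31 (1.745 to 3.09). Outside the list, Cd44, a receptor for hyaluronan that antigen-experienced cells carry at a high level, stood at 144.5 and 95.01 CPM, a ratio of 1.52 (1.24 to 1.87). Cd27 and Cd28 did not reach the limit.

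Inhibitory receptor genes were split. Of 16 measured members of the inhibitory and exhaustion list 8 were higher and 2 lower, at a list median of 0.50. Without the Cd74 cells 14 were measured, 5 higher and 0 lower. Pdcd1, the gene of PD-1, stood at 216 CPM (194 to 239) and 78.2 CPM (65.3 to 92.8), a ratio of 2.76 (2.25 to 3.40), and Ctla4, which competes with CD28 for its ligands, at 157 and 77.0 CPM, a ratio of 2.04 (1.65 to 2.54). Without the Cd74 cells Pdcd1 had a ratio of 2.29 and Ctla4 of 1.74. After thinning Pdcd1 was found in 25.4% and 12.96% of CD4 cells and in 0.606% and 0.0787% of myeloid cells. Other exhaustion receptors were scarce: Lag3 stood at 28.7 and 17.4 CPM, Havcr2 at 9.95 and 19.2 CPM and Tigit at 4.09 and 2.40 CPM. Havcr2 and Cd244, the 2 lower members, had ratios of 0.517 and 0.175 over all cells and of 2.55 and 1.09 without the Cd74 cells. Tcf7 was found in 27.2% and 15.6% of cells with Pdcd1 and in 45.8% and 51.2% of cells without it.

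**Figure D2:**
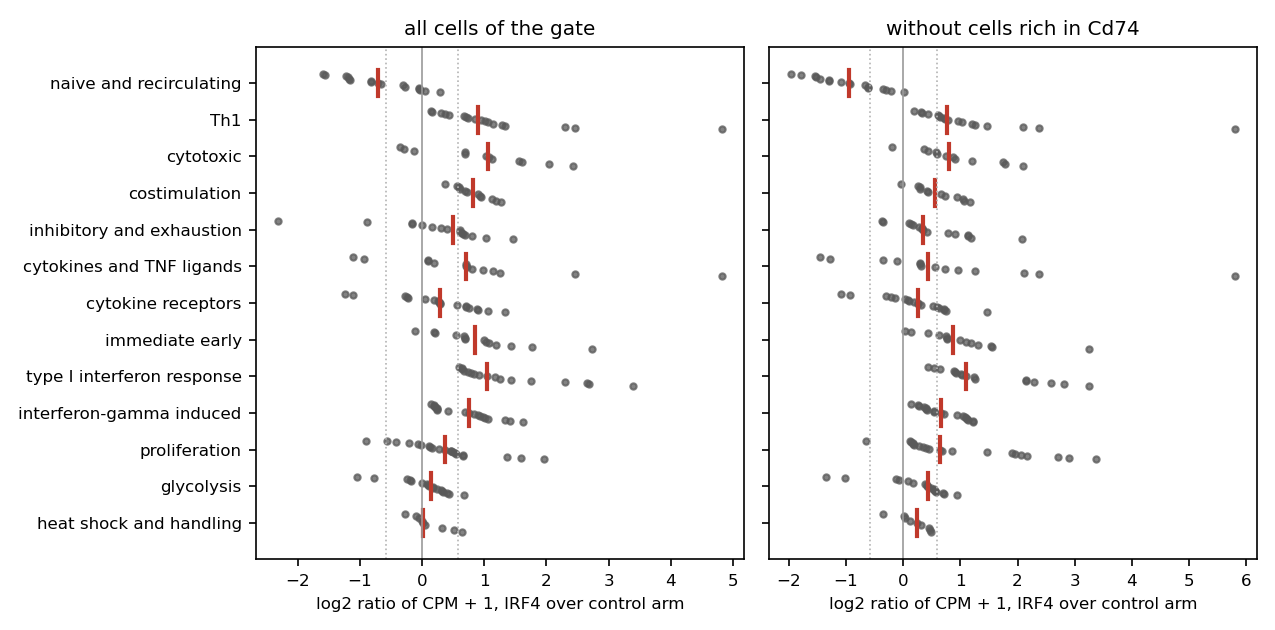
Log2 ratio of CPM + 1, IRF4 over control arm, of each measured member (points) of 13 gene lists in conventional CD4 T cells, with the list median (bar), for all cells on the left and without the 8 and 22 cells rich in Cd74 on the right. Dotted lines mark the 1.5-fold limit. The median of the naive list lies left of 0 in both panels, at -0.71 and -0.94, and that of the type I interferon list right of it, at 1.04 and 1.11.

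Early response genes of receptor stimulation were higher too. Of 14 measured immediate early genes 10 were higher and 0 lower, at a list median of 0.84, and 11 and 0 without the Cd74 cells, with a median of 0.88. Fos stood at 659 and 330.1 CPM, a ratio of 1.997 (1.80 to 2.22), and Egr1 at 253 and 93.8 CPM, a ratio of 2.70 (2.24 to 3.26). Dusp2, a phosphatase that ends MAP kinase signals, stood at 330.5 and 96.8 CPM, a ratio of 3.41 (2.86 to 4.09). Nr4a1, a reporter of T cell receptor signals, stood at 25.7 and 3.01 CPM, a ratio of 8.56 (3.40 to 27.7), in 22 and 5 cells. Jun itself stood at 542 and 586 CPM, a ratio of 0.926. These genes also respond to tissue handling. Of 9 heat shock and handling genes 1 was higher and 0 lower, at a list median of 0.02. Without the Cd74 cells 0 were higher and 0 lower, at a list median of 0.25, beside 0.13 over all measured genes. What part handling had was not tested.

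Of the 21 lists, only the type I interferon list had every measured member higher. Of its 20 members 17 were measured and all 17 were higher, with a median log2 ratio of 1.04. Less the Cd74 cells, 15 were higher and 0 lower, at a list median of 1.11. Isg15, a ubiquitin-like protein induced by interferon, was read in 96 and 38 cells and stood at 144 CPM (126 to 163) and 42.1 CPM (32.8 to 53.2), a ratio of 3.42 (2.61 to 4.53). Ifit3, an interferon-induced RNA-binding cofactor, stood at 132 and 19.8 CPM, a ratio of 6.66 (4.61 to 9.91), and Ifit1 at 149 and 22.9 CPM, a ratio of 6.53 (4.63 to 9.44). Rsad2, the gene of viperin, had a ratio of 12.4 (6.06 to 29.5), with at least 50% of its UMIs in 2 cells of the IRF4 arm. Broader members had smaller ratios: Ly6a, a surface protein of activated T cells, stood at 1221 and 704 CPM. After thinning, Isg15 was found in 15.99% (12.1 to 20.5) and 5.67% (3.13 to 9.33) of CD4 cells. It was found in 31.8% and 14.8% of myeloid cells and in 2.75% and 1.75% of B cells, the latter at median depths of 3326 and 3595 UMIs.

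The promoters of 2 of these genes are shown because the list shares a known sequence signal, the interferon-stimulated response element, to which interferon regulatory factors bind. RefSeq promoter windows of 250 bases before to 50 bases after the start (GRCm38.p6) were searched on both strands for GAAANNGAAA, and overlapping matches were each counted. Windows were matched for 12 of the 20 list members, and 7 of the 12 held the motif, or 58.3%, against 3.99% of the 27025 genes with a window. Of the 14 matched interferon-gamma induced genes 9 held it, and of 13 matched naive genes 0. Capitals mark the matches, on either strand.

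Isg15, chr4:156200769-156201068, minus strand: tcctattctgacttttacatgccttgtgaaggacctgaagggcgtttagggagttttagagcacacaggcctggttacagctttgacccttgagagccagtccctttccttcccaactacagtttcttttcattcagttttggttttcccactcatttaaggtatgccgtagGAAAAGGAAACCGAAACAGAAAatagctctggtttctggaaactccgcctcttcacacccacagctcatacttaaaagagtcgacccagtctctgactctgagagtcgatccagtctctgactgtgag

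Ifit3, chr19:34583279-34583578, plus strand: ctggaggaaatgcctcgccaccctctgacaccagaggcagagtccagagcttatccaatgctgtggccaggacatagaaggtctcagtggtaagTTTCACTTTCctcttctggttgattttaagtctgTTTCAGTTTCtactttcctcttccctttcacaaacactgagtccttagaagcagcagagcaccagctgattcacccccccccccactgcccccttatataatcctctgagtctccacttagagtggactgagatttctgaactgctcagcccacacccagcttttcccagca

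The Isg15 window holds 3 overlapping matches and the Ifit3 window 2 separate ones on the other strand. A match describes the letters of the window and does not show that a factor was bound in these cells.

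Genes that interferon-gamma induces most were higher in part. Of 19 members, all measured, 11 were higher and 0 lower, at a list median of 0.76, and 10 and 0 without the Cd74 cells. Iigp1 and Irgm1, GTPases that attack pathogen vacuoles, stood at 144 and 56.5 CPM and at 166 and 81.2 CPM, and Socs1, the feedback inhibitor of the pathway, at 147 and 54.7 CPM. The immunoproteasome and peptide loading genes Psmb8, Psmb9, Psme1, Psme2, Tap1 and Tap2 all stayed within a ratio of 1.5. Ifngr1, the ligand-binding receptor chain, stood at 1190 and 729 CPM, and Ifngr2, the signalling chain, at 15.8 and 38.5 CPM.

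Signature cytokines of other helper programmes were at or near 0 at this depth, while some of their other genes were read at higher levels. Il17a, Il17f, Il22 and Il23r had no UMI in any of the 567 cells, which allows up to 1.75 and 1.80 CPM, and neither had Il5 or Il13. Il4 had 0.601 CPM in the control arm, and Il21, the cytokine of follicular helper cells, 1 UMI in all. Bcl6, the transcription factor of follicular helper cells, stood at 9.36 and 21.7 CPM, with ratios of 0.432 over all cells and 0.842 without the Cd74 cells. Of 8 measured follicular helper genes 4 were higher and 1 lower, and 2 and 0 without those cells. Sh2d1a, an adaptor of SLAM receptors, stood at 213 and 127 CPM, and Slamf6, one of those receptors, at 212 and 191 CPM. Gata3, the transcription factor of Th2 cells, stood at 88.9 and 72.8 CPM, above Tbx21. Of 3 measured Th2 genes 0 were higher and 0 lower, and 0 and 1 of 4 without the Cd74 cells. Rora, a nuclear receptor of Th17 and other T cells, stood at 178 and 79.97 CPM. Of 4 measured Th17 genes 1 was higher and 3 lower, and 2 and 0 without those cells. Of 7 measured regulatory genes other than Foxp3 5 were higher and 1 lower, and of 5 measured without those cells 2 and 0. Cells with both Il2ra and Ikzf2, which may be regulatory cells with no Foxp3 UMI caught, numbered 7 and 5.

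Irf4 itself was too rare in these cells to compare. It had 4 UMIs in the IRF4 arm against 8 in the control arm, and 7 of the 8 control UMIs lay in the cluster rich in antigen-presenting transcripts. Of 10 measured IRF4 partners and targets 5 were higher and 1 lower, and 2 and 0 of 9 without the Cd74 cells. Batf, its partner factor, stood at 92.4 and 59.5 CPM, Maf, a factor of IL-10 and IL-21 producing helper cells, at 246 and 145.5 CPM, and Prdm1, the gene of Blimp-1, at 18.7 and 13.2 CPM.

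Proliferation, glycolysis and survival genes showed no common shift over all cells. Of 21 measured proliferation genes 5 were higher and 1 lower, and without the Cd74 cells 12 of 22 were higher and 1 lower, at a list median of 0.67. Mki67 stood at 33.3 and 45.1 CPM, in 24 and 20 cells, and 2 cells in each library held at least 50% of its UMIs. Of 18 glycolysis genes 1 was higher and 2 lower, and 3 and 2 of 17 without the Cd74 cells. Of 13 apoptosis and survival genes 2 were higher and 0 lower, and 4 and 0 without those cells. Of 19 cytokine receptor genes 7 were higher and 2 lower, and 6 and 2 of 18 without them. Of 17 genes close to the T cell receptor 4 were higher and 1 lower, and 1 and 1 without the Cd74 cells. Of 20 measured chemokine receptor and adhesion genes 6 were higher and 4 lower, and 6 and 4 of 18 without the Cd74 cells. Cxcr4 stood at 79.0 and 28.9 CPM and Itgb1, the beta 1 integrin, at 769 and 447 CPM.

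The widest ratios over all cells came from few barcodes. Serpinb2 was first, at 113 and 0.601 CPM, with all 193 UMIs of the IRF4 arm in 1 cell, and 1 cell also held at least 50% of the UMIs of Cd14 and of Hmox1. Ly6c2, a surface protein of effector and memory T cells, was more even, at 266 and 53.5 CPM in 88 and 26 cells, a ratio of 4.97 (3.96 to 6.31). Even so, 101 of its UMIs in the IRF4 arm lay in the 7 cells of cluster 4, described below. Its ratio was 4.34 without the Cd74 cells. The 10 lowest by log2 ratio of CPM + 1, with CPM ratios between 0.0146 for Ifitm1 and 0.0452 for Cd74, also included H2-Aa, H2-DMb1, H2-Eb1, H2-Ab1, Mgl2, Dab2, Cfp and Spi1. Among the lowest without the Cd74 cells were St8sia6, a sialyltransferase, at 3.71 and 56.7 CPM, then Ccl6, Ly6c1, Igfbp4, Cd55, Fam101b, Tdrp, Atp1b1 and Sesn1, whose ratios ran up to 0.331. St8sia6, Ly6c1, Igfbp4, Tdrp and Atp1b1 were also among the 10 leading genes of the naive cluster described next.

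The 567 cells formed 5 clusters when both libraries were clustered together. Cluster 1 was Th1-like, with Cxcr6 at 558 CPM, Ccl5 at 3227 CPM and Tbx21 at 63.0 CPM, and held 184 cells of the IRF4 arm and 76 of the control arm. Its leading genes also included Gzma, Klra4, Tnfrsf4 and Tnfrsf9, and the regulatory markers Ikzf2, Ctla4 and Tnfrsf18 were at their highest there too, at 267, 217 and 446.8 CPM. Ifng stood at 61.5 CPM in it and at 63.6 CPM in cluster 0. Cluster 3 was naive-like, with Igfbp4 at 364 CPM, Lef1 at 796 CPM and Dapl1 at 332 CPM, and held 16 and 105 cells. Cluster 0 was interferon-stimulated-like, with Ifit1 at 960 CPM and Isg15 at 788 CPM, and held 23 and 4 cells. Trdc, the constant segment of the gamma-delta receptor, stood at 178 CPM in it. Cluster 2, led by Slamf6 with Cxcr5 and Izumo1r, held 89 and 40 cells, or 27.9% and 16.1% of the gate, and was left unnamed. Il21 had no UMI in it, but only 1 in all cells, so that does not decide its name. It also carried naive markers, with Klf2 at 1096 CPM, S1pr1 at 185.5 CPM and Ccr7 at 132 CPM. In cluster 3 these stood at 1232, 192.5 and 265 CPM. Lef1 and Igfbp4 were further apart, at 174.5 and 17.3 CPM in cluster 2. Cluster 4, with Cd74 at 12110 CPM, held 7 and 23 cells at a median of 20810 UMIs and was left unnamed too. Its cells differed between the arms, with Cd74 at 1352 and 15270 CPM and Ly6c2 at 682 and 45.5 CPM. The cycling markers Mki67 and Top2a were at their highest in it, at 132 and 181 CPM over both libraries. The genes that build the clusters differ between the arms, so these numbers describe where the cells lay and are not a measure apart from the levels above.

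**Figure D3:**
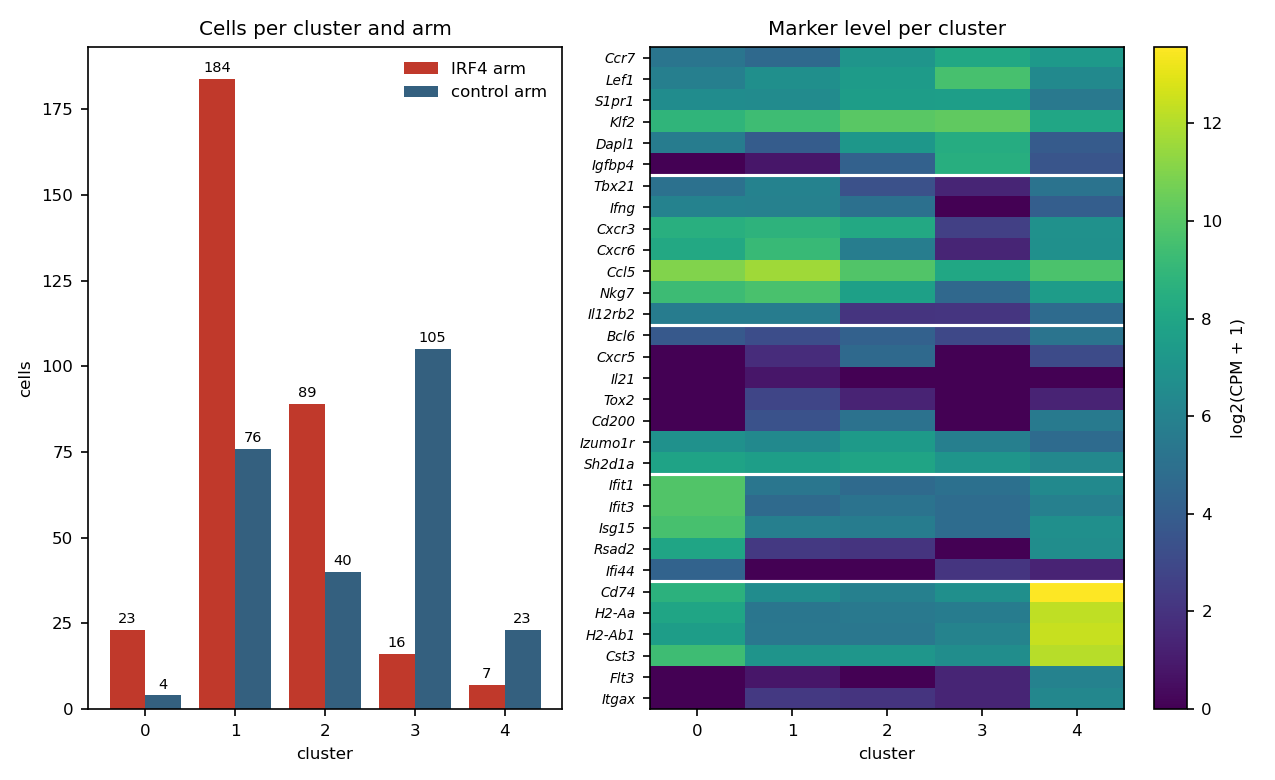
Left, number of conventional CD4 T cells of each arm in the 5 clusters. Right, level of subset markers in each cluster as log2(CPM + 1), both libraries together, in blocks of naive, Th1, follicular helper, interferon-stimulated and antigen-presenting genes from top to bottom. The naive-like cluster 3 holds 16 and 105 cells and the Th1-like cluster 1 holds 184 and 76.

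Within the Th1-like cluster some Th1 genes, such as Cxcr3, had ratios near 1 between the arms, while Fos, Egr1, Isg15 and the Th1 gene Ifng had ratios above 2. Cells were placed in the cluster by their expression, and Cxcr6, Nkg7, Pdcd1 and Tnfrsf4 were among its leading genes. That choice of cells can itself draw the ratios of Th1 genes towards 1. In it 12.5% of 8012 measured genes were higher and 13.9% lower, at an overall median of -0.03. Of 18 Th1 genes 5 were higher there, namely Ifng, Ly6c2, Il12rb2, Stat4 and Ccl4, and 1 was lower. Of 12 costimulatory genes 0 were higher and 0 lower. Cxcr3 stood at 438 and 447 CPM, a ratio of 0.979 (0.819 to 1.17), Nkg7 at 811 and 821 CPM, a ratio of 0.987, and Tbx21 at 62.9 and 63.2 CPM, a ratio of 0.995. Cxcr6 was lower in the IRF4 arm, at 482 and 733 CPM, a ratio of 0.658 (0.566 to 0.766), against 1.34 over all cells.

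Most early response genes passed the limit in the cluster. Of its immediate early genes 12 of 14 measured members were higher and 0 lower, at a list median log2 ratio of 0.91. Of 9 heat shock and handling genes 2 were higher and 0 lower in the cluster, at a list median of 0.25. Fos had a ratio of 2.69 (2.20 to 3.30), Egr1 of 2.46 (1.78 to 3.47) and Dusp2 of 1.88 (1.495 to 2.38). Of 15 type I interferon genes 8 were higher and 0 lower, at a list median of 0.88, and Isg15 stood at 72.6 and 17.7 CPM, a ratio of 4.11 (1.89 to 10.6). Ifng stood at 75.9 and 27.8 CPM, a ratio of 2.73 (1.44 to 5.72), and Ly6c2 at 271 and 98.6 CPM, a ratio of 2.75. Pdcd1, Icos and Tnfrsf4 had ratios of 1.36 (1.08 to 1.73), 1.28 (1.07 to 1.54) and 1.44 (1.19 to 1.76), below the limit.

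**Figure D4:**
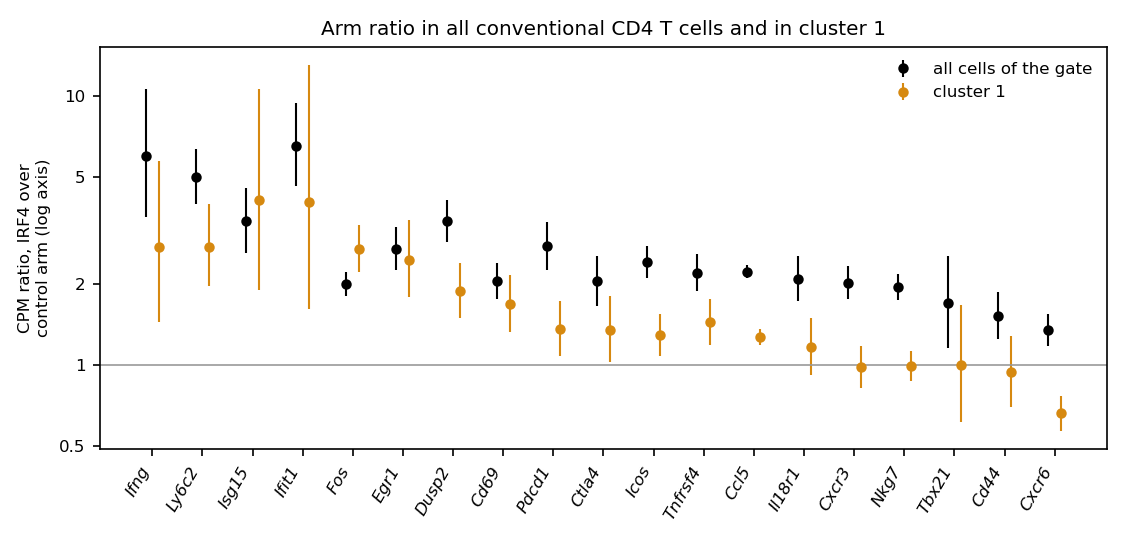
Ratio of CPM between the arms on a log axis, over all conventional CD4 T cells (black) and within the Th1-like cluster 1 (orange), with exact 95% intervals for counting error. Cxcr3, Nkg7 and Tbx21 lie at 1 within the cluster, and Ifng, Isg15, Fos and Egr1 lie above 2 there. Cells were placed in the cluster by their expression, which can itself draw Th1 ratios towards 1.

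Beside regulatory T cells of the same libraries, conventional CD4 cells were richer in genes of the resting state and poorer in those of the regulatory programme. Of 7717 genes measured in both libraries 6.82% were higher and 12.6% lower in both. Of 16 measured naive genes 14 were higher in both libraries, of 11 regulatory genes 10 were lower, and all 22 proliferation genes were lower. Tcf7 stood at 300.1 CPM in conventional and 8.17 CPM in regulatory cells of the IRF4 arm, and at 311 and 18.2 CPM in the control arm. Dapl1, Ms4a4b, Rasgrp2, an activator of the small GTPase Rap1, and Themis, a receptor signalling adaptor, completed the top 5. Cd40lg had ratios of 12.6 and 13.3, and Il2 of 4.15 and 2.43. The lowest ratios belonged to Klrg1, Il2ra, the high-affinity IL-2 receptor chain, Itgb8, Cd81 and Neb, with Il2ra at 0.0777 and 0.0615. Regulatory cells were deeper, at medians of 8733 and 16550 UMIs, and their gate required a Foxp3 UMI, which deeper cells pass more easily.

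Beside endogenous CD8 T cells, conventional CD4 cells had less RNA of killing and division and more of naive genes. Of 7660 genes measured in both libraries 8.84% were higher and 10.7% lower in both. All 22 proliferation genes and 8 of 15 cytotoxic genes were lower in both libraries, and 15 of 16 naive genes were higher. Of 18 Th1 genes 1 was higher and 4 lower in both. Gzmd, Gzmc, Gzmf, Prf1, the gene of perforin, and Nrgn had the lowest ratios. Prf1 stood at 5.26 and 2.40 CPM in CD4 cells and at 97.8 and 146 CPM in CD8 T cells. Il6ra, a chain of the IL-6 receptor, Tmem64, Izumo1r, Sepp1 and Tspan32 had the highest, with Il6ra at 8.997 and 8.53. Icos had ratios of 6.15 and 3.88.

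The arm ratios of several genes lay on opposite sides of 1 in the 3 T cell classes. Ifng had a ratio of 5.95 in conventional CD4, 3.01 (1.502 to 6.43) in regulatory and 0.784 (0.746 to 0.824) in CD8 T cells. Its level in CD8 T cells was higher than in CD4 cells in both arms, at 152 and 194.5 CPM. Tnfrsf4 had ratios of 2.20, 1.89 and 0.669, Cxcr6 of 1.34, 0.681 and 0.715, and Cd44 of 1.52, 0.761 and 0.752. Pdcd1, with 2.76, 1.75 and 1.52, and Icos, with 2.41, 1.79 and 1.52, were above 1 in all 3 classes. Lef1 had ratios of 0.425, 0.951 and 0.972. The CD4 ratios here are over all cells of the gate. Within the Th1-like cluster 1 they were 2.73 for Ifng, 1.44 for Tnfrsf4, 0.658 for Cxcr6 and 0.938 for Cd44. These differences between classes were not tested.

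**Figure D5:**
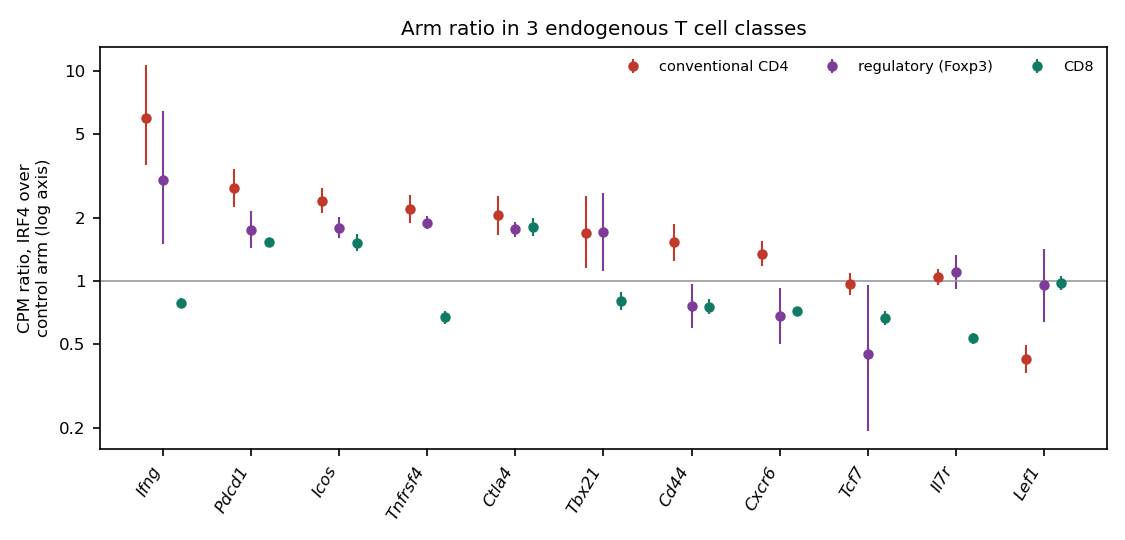
Ratio of CPM between the arms on a log axis in conventional CD4, regulatory and CD8 T cells of the endogenous libraries, with exact 95% intervals for counting error. Ifng is at 5.95, 3.01 and 0.784, and Pdcd1 and Icos are above 1 in all 3 classes.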

How the data were processed

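Droplet 3′ RNA libraries (version 3 chemistry, per the labels' protocols) gave whole UMI counts per gene and barcode, which the authors deposited without normalisation. The tools were Cell Ranger 3.0.2 and STAR 2.6 with mm10, per the submitters' processing notes. No source used here gives the annotation. The labels' protocols also name a nucleus suspension, although cells were sorted, and barcodes were treated as cells. The files name 28692 genes. Where a listed symbol had several identifiers, the one holding the most UMIs was used. Coordinates come from GENCODE of the same assembly and promoters from RefSeq.

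Cells were gated per library, and their counts were summed and scaled to CPM, with a pseudocount of 1 CPM for log2 ratios. With 1 library per group no test was made. Exact 95% intervals were Poisson for levels, Clopper-Pearson for shares, and for ratios binomial, given the sum of both counts. PCR copies were collapsed by UMI, and a count of 0 is given a limit of 3 counts. Cells were clustered on log counts per 10000 with 1459 variable genes, 20 components, 15 neighbours and Leiden resolution 0.5. Myeloid cells (no CD3 UMI, Lyz2 of at least 50 per 10000) and B cells (no CD3 UMI, at least 2 Cd79a UMIs) served as background. Scrublet ran at an expected rate of 0.06.

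The members, the 21 gene lists and the 11 marker lists were chosen with earlier results of these data known. Named genes were 20 primary genes, 1 of which is not reported here, the 10 highest and lowest ratios at 50 CPM and 20 UMIs or more, 5 of each against the other classes, and up to 4 members of each list by size of ratio. Other list members, genes of the sequence and haemoglobin checks, and those lowest without the Cd74 cells, were named after their values were seen. Ratios were checked on simulated counts drawn independently, so the check does not cover genes whose UMIs lie mostly in a few cells. Tools were scanpy 1.11.5 with igraph 0.11.9 for clustering, scipy 1.17.1 for intervals, numpy 2.4.6 and pandas 2.3.3 for sums, anndata 0.12.19, matplotlib 3.10.9, and Python 3.11.15.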

Additional observations from a re-analysis of the deposited data

Results flagged for a closer look

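In 5 primary genes the counting intervals of the arm ratio lay above 1 in conventional CD4 T cells and below 1 in endogenous CD8 T cells of the same libraries. Ifng had a ratio of 5.95 in CD4 and 0.784 in CD8 T cells, Tbx21 of 1.70 and 0.801, and Cxcr6 of 1.34 and 0.715. Tnfrsf4 had ratios of 2.20 and 0.669, and Cd44 of 1.52 and 0.752. These CD4 ratios are over all cells of the gate. Without the Cd74 cells they were 5.56 for Ifng, 1.55 for Tbx21, 1.13 for Cxcr6, 1.93 for Tnfrsf4 and 1.61 for Cd44. Within the Th1-like cluster 1 they were 2.73, 0.995, 0.658, 1.44 and 0.938 in the same order. Placing cells in that cluster by expression can itself draw ratios towards 1. The difference between the classes was not tested, since each arm had 1 library.

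The gate was also met outside the endogenous libraries. In the transferred Pmel-1 library of the control arm 4 of 2513 kept cells passed it, 0.159% (0.0434 to 0.407), and in that of the IRF4 arm 2 of 572, 0.3497% (0.0424 to 1.26). These 2 libraries were sorted for transduced CD8 T cells.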

How the results depend on the processing

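With 1 library per arm there was no replicate to leave out, and counting intervals say nothing of the spread between mice. No paired analysis was possible because the groups compared share fewer than 2 replicate numbers. Leaving out the Cd74 cells, and leaving out cells with Ccr7 alone or with them, were chosen after seeing the data, as were the shares of cells with and without Ccr7. A planned setting without naive cells was not run.

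The log2 ratio of Ifng lay between 1.98 and 2.46 over 16 settings, the median of the type I interferon list between 0.94 and 1.20, and that of the immediate early list between 0.75 and 1.11. Other values moved more: the log2 ratio of Pdcd1 lay between 0.74 and 1.78, of Ctla4 between 0.32 and 1.10, of Cxcr6 between -0.22 and 0.73, of Tcf7 between -0.53 and 0.32, of Gzmb between -0.67 and 0.58 and of Mki67 between -1.75 and 2.11, and the median of the naive list between -0.99 and -0.30. The genes past the fold between arms, lower, numbered 735, and 1140 at no more than 5% mitochondrial UMIs, 2424 with no CPM minimum, 355 at a fold of 2 and 442 without the Cd74 cells. The genes past the fold between arms, higher, numbered 823, and 1427 with Lyz2 at 0, 2263 with no minimum and 203 at a fold of 2. At a fold of 2 the naive list had 6 lower members, and the members higher were 8 for Th1, 4 for cytokines, 2 for inhibitory, 3 for costimulation, 3 for proliferation and 9 for type I interferon genes.

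In cells without Ccr7, 3 inhibitory, 5 costimulation and 17 proliferation genes were higher. When the Cd74 cells were left out too, these numbers were 4, 4 and 17. Without the Cd74 cells alone 5 of 14 inhibitory, 6 of 12 costimulation and 12 of 22 proliferation genes were higher, beside 12.8% of 7714 measured genes. For the 2 settings without Ccr7 the share over all genes is not given here. Those counts therefore show only that list counts depend on the cells taken. The median log2 ratio of the Th17 list turned from -1.72 to 0.32 without the Cd74 cells.

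Inhibitory genes higher numbered 4 at no more than 5% mitochondrial UMIs, 5 with Lyz2 at 0, 4 under median ratio scaling and 4 with cells weighted equally. Proliferation genes higher numbered 0, 18, 3 and 2 in the same order, 3 with a pseudocount of 5, 10 without the Il2ra and Ikzf2 cells and 3 in cells without cycle UMIs. The ratio of the CD4 share was 1.5 with Lyz2 at 0, 0.55 among gated T cells, 1.5 for cells without Ccr7 and 0.609 for cells with it. Genes lower than in CD8 T cells numbered 820, and 503 with cells weighted equally. The genes past the fold, higher, ranged from 203 to 2263 over the 16 settings. Their share is not given beside each list count here, so those counts show only that they depend on the setting. The causes of these changes were not tested.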
